A study of Mus musculus with 12 samples.

Results

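Colon tumours that grew under St2-/- bone marrow were compared between hosts that lacked ST2 and hosts that carried it. The comparison used 6 of the 12 libraries of the series, 3 from St2-/- => St2-/- chimeras and 3 from St2-/- => WT chimeras, where the marrow donor stands before the arrow and the irradiated host after it. All 6 animals were Balb/c males and all carried St2-/- marrow, and the hosts differed in ST2 genotype. Hosts were irradiated with 2 doses of 5 Gy, were reconstituted for 8 weeks and then received azoxymethane (AOM), a colon carcinogen, at 10 mg/kg once a week for 6 weeks. Tumours were taken 14, 14 and 13 weeks after the last dose in St2-/- => St2-/- mice and 13, 13 and 14 weeks after it in St2-/- => WT mice. Which exons the St2-/- allele lacks is not given in the sources used here. Irradiation leaves radioresistant host cells such as epithelium, stroma and some tissue leukocytes in place, so a host contributes more than 1 cell type to a tumour.

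ST2 is the receptor for interleukin 33 (IL-33), a cytokine of the IL-1 family that is stored in the nuclei of epithelial and stromal cells and released on damage. It is encoded by Il1rl1, signals through MYD88 and is known in the gut on mast cells, regulatory T cells, innate lymphoid cells and stromal cells. Interferon gamma, made by T and NK cells, acts in part through IRF1 to induce guanylate-binding proteins, immunity-related GTPases, antigen presentation and the tryptophan-degrading enzyme IDO1. Type I interferons act in part through STAT2 and IRF9 on an overlapping set of genes.

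Gene counts per library were 12077436 to 12332133 in St2-/- => St2-/- tumours and 11697973 to 12735295 in St2-/- => WT tumours. Multiply aligned reads took 40.2% to 48.9% of a library's total in St2-/- => St2-/- tumours and 36.7% to 37.2% in St2-/- => WT tumours, without overlap, and their part in the results was not tested. The numbers that open the library names in the labels had 3 digits in all St2-/- hosts and 5 digits in all WT hosts. Whether the hosts were littermates or were bred together is not given in the sources used here. A difference in host origin therefore cannot be told apart from host ST2 genotype. On the first principal component of the 500 most variable genes, which held 57.7% of their variance, St2-/- => WT replicate 3 (-7.69) lay beside St2-/- => St2-/- replicate 1 (-7.76). On the second, which held 18.1%, these 2 libraries lay far apart, at -16.4 and 26.9. The colon epithelial markers were abundant in every library: Epcam, a surface protein of epithelia, had 1756, 2022 and 2005 CPM (counts scaled to library size) in St2-/- => St2-/- tumours and 2246, 2596 and 2151 CPM in St2-/- => WT tumours. These were whole tumours, in which fewer cells of a type and less RNA per cell cannot be told apart.

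Il1rl1, on chromosome 1 (chr1:40429570-40465415, GRCm38, plus strand), was read first as a check of the labels. It had 13.4, 7.91 and 10.8 CPM in St2-/- => St2-/- tumours (175, 100 and 139 reads) and 124, 36.5 and 193 CPM in St2-/- => WT tumours (1445, 426 and 2225 reads). The groups did not overlap, although the St2-/- => WT tumours spread widely and St2-/- hosts kept some reads. The log2 fold change, always St2-/- => St2-/- over St2-/- => WT, was -3.46 ± 0.74 (SE), with an adjusted p of 0.175 by edgeR's quasi-likelihood test across 15060 genes, so Il1rl1 itself was not called. Il33, the ligand, had 42.6, 54.9 and 50.8 CPM in St2-/- => St2-/- tumours and 184, 26.3 and 60.6 CPM in St2-/- => WT tumours, with overlap (adjusted p = 0.599, edgeR). Its log2 fold change was -0.87, with a range of -1.27 to 0.185 when each library was left out in turn and the positive value without St2-/- => WT replicate 1. Of the 10 tested genes nearest Il1rl1 on chromosome 1, 0 were called by edgeR at an adjusted p under 0.05, 3 had an unadjusted p under 0.05, DESeq2 called 0 and limma-voom 3. Of all tested genes, 12% had an unadjusted p under 0.05 and limma-voom called 13.3%, and from 3 of 10 genes nothing is read about these neighbours. Rnf149, an E3 ubiquitin ligase, and Map4k4, a kinase upstream of JNK, stood higher without overlap, with log2 fold changes of 0.52 ± 0.20 and 0.68 ± 0.24 (SE).

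The edgeR test called 9 of 15060 genes at an adjusted p under 0.05, or 0.0598%, with 1 higher (0.00664%) and 8 lower (0.0531%) in St2-/- => St2-/- tumours. Without adjustment, 1809 genes (12%) had a p under 0.05. The 3 and 3 libraries did not overlap for 1594 genes that were higher (10.6%) and 1906 that were lower (12.7%) in St2-/- => St2-/- tumours. The median log2 fold change of all tested genes was 0.0031. The number of calls depended on the method and on single libraries. DESeq2's Wald test called 262 genes (1.74%), 54 higher (0.359%) and 208 lower (1.38%), and limma-voom 2004 (13.3%), 809 higher (5.37%) and 1195 lower (7.93%); both lists held all 9 genes. In edgeR, 1 gene was called when any one of St2-/- => St2-/- replicate 1, St2-/- => St2-/- replicate 3, St2-/- => WT replicate 2 or WT => WT replicate 3 was left out, 2 without St2-/- => St2-/- replicate 2, 5 without WT => St2-/- replicate 3 and 17 without St2-/- => WT replicate 3. Wipi1 was called under all 23 alternatives tried, Ido1 and Mfap1a under 16, Arl2bp under 15, Wars under 14, Upp1 under 11, Tcfl5 under 6 and Gm5431 under 5.

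The lower genes included enzymes that interferon gamma is known to induce. Ido1, the first and rate-limiting enzyme of tryptophan breakdown to kynurenine, had 3.59, 9.42 and 1.16 CPM in St2-/- => St2-/- tumours and 210, 405 and 212 CPM in St2-/- => WT tumours. Every St2-/- host was thus far below every WT host, and the log2 fold change was -5.87 ± 0.71 (SE; adjusted p = 0.0177, edgeR). Wars, the cytoplasmic tryptophanyl-tRNA synthetase, had 196, 200 and 189 CPM in St2-/- => St2-/- tumours and 543, 765 and 562 CPM in St2-/- => WT tumours. The values were tight in St2-/- hosts and higher in every WT host, with a log2 fold change of -1.68 ± 0.21 (SE; adjusted p = 0.0177, edgeR). Upp1, uridine phosphorylase 1, which cleaves uridine to uracil, had 30.2, 33.4 and 20.0 CPM in St2-/- => St2-/- tumours and 204, 557 and 236 CPM in St2-/- => WT tumours. The groups did not overlap and the log2 fold change was -3.57 ± 0.50 (SE; edgeR adjusted p = 0.0441).

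The remaining called genes were not grouped by role. Wipi1, a phosphoinositide-binding protein of early autophagosomes, was the 1 gene that rose. It had 25.8, 25.2 and 27.4 CPM in St2-/- => St2-/- tumours and 0.0862, 0.686 and 0.26 CPM in St2-/- => WT tumours. All St2-/- hosts carried about the same level and all WT hosts were close to 0, with 1011 reads in 3 St2-/- => St2-/- tumours and 12 in 3 St2-/- => WT tumours. The depth-scaled ratio was 75.8, with a 95% counting interval of 43.2 to 147, and the edgeR log2 fold change was 6.20 ± 0.46 (SE; adjusted p = 0.000555). Wipi1 lies on chromosome 11 (chr11:109573331-109611967, minus strand). Of the other 19 members tested of a list of core autophagy genes, 0 were called by edgeR (2 at an unadjusted p under 0.05), 0 by DESeq2 and 2 by limma-voom. Of all tested genes, 12% had an unadjusted p under 0.05, DESeq2 called 1.74% and limma-voom 13.3%. The counts are near these shares, and nothing is read from them about the other autophagy genes.

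Tcfl5, a basic helix-loop-helix transcription factor known from the testis, had 2 reads in all 3 St2-/- => St2-/- tumours together and 171 in the 3 St2-/- => WT tumours. The depth-scaled level was 95 times lower in St2-/- hosts, with a counting interval of 25.9 to 791 (adjusted p = 0.0492, edgeR). Mfap1a, a component of the spliceosome, had 4.81, 4.75 and 4.48 CPM in St2-/- => St2-/- tumours and 21.2, 22.8 and 22.3 CPM in St2-/- => WT tumours. Its log2 fold change was -2.24 ± 0.26 (SE; edgeR adjusted p = 0.0177), and because Mfap1b is a near-identical copy whose reads can be shared, the split between the copies is uncertain. Arl2bp, which binds the small GTPase ARL2, had 52.0, 54.0 and 38.4 CPM in St2-/- => St2-/- tumours and 141, 141 and 175 CPM in St2-/- => WT tumours (log2 fold change -1.66). The predicted protein-coding gene Gm5431 had 2.60, 2.45 and 1.08 CPM in St2-/- => St2-/- tumours and 9.65, 24.4 and 13.2 CPM in St2-/- => WT tumours (log2 fold change -2.94). It lies on chromosome 11 (chr11:48887422-48902214, minus strand), near the immunity-related GTPase gene Irgm1. Gm5431 was not in the list of immunity-related GTPases, and no role was assigned to it here. Within each of these genes the 2 hosts did not overlap.

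**Figure D1:**
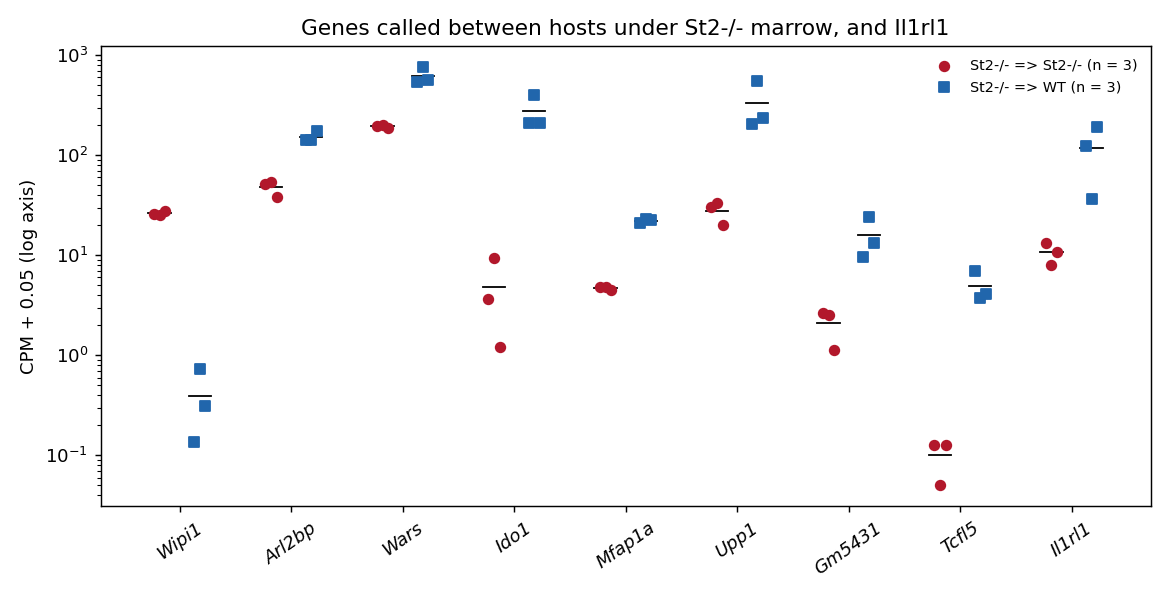
CPM plus 0.05 on a log axis for 8 of the 9 called genes and Il1rl1. Circles are the 3 St2-/- => St2-/- libraries, squares the 3 St2-/- => WT libraries and short lines the mean of CPM plus 0.05. Wipi1 is the 1 called gene with circles above squares, and no gene shown has circles and squares at the same height.

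Just outside the threshold, the lower genes again included interferon-induced genes. By the naming rule these were Cd274, Irf1, Htatip2, Gbp2b, Apol6, H2-Q5, Slfn5, Stat2, Ly6c1 and Gbp2, with adjusted p of 0.0635 to 0.0803 by edgeR and no overlap in CPM. Cd274, which encodes the checkpoint ligand PD-L1, had 20.6, 17.0 and 10.6 CPM in St2-/- => St2-/- tumours and 80.2, 99.9 and 50.6 CPM in St2-/- => WT tumours. H2-Q5, a non-classical MHC class I gene annotated as a polymorphic pseudogene, has close relatives that can share its reads. It had 6 reads in the St2-/- => St2-/- tumours and 247 in the St2-/- => WT tumours, a depth-scaled level 45.7 times lower (counting interval 20.7 to 126). Htatip2, an oxidoreductase, and Apol6, an apolipoprotein L family member, had log2 fold changes of -1.23 ± 0.19 and -2.38 ± 0.38 (SE). Ly6c1 marks endothelial cells and some leukocytes and had a log2 fold change of -2.09 ± 0.35 (SE). It was the lowest of 18 tested endothelial genes, of which 17 had a positive log2 fold change, with a list median of 0.374. Without overlap, 3 of the 18 were higher and 1 lower, against 10.6% and 12.7% of all tested genes.

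The uncalled genes with the smallest p that stood higher, chosen by the same rule, had mixed roles. Krt17, a keratin of basal and stressed epithelia, had 100, 61.7 and 39.9 CPM in St2-/- => St2-/- tumours and 13.3, 9.26 and 18.1 CPM in St2-/- => WT tumours (log2 fold change 2.31 ± 0.40, SE; adjusted p = 0.0945, edgeR). Hspe1, the mitochondrial co-chaperone HSP10, had 62.0, 99.3 and 72.8 CPM in St2-/- => St2-/- tumours and 27.9, 25.0 and 24.8 CPM in St2-/- => WT tumours (adjusted p = 0.0803, edgeR). Vwf, von Willebrand factor of endothelial cells, had 21.1, 31.0 and 37.3 CPM in St2-/- => St2-/- tumours and 8.62, 11.1 and 14.7 CPM in St2-/- => WT tumours. Sfi1, a centrosomal protein, Smco3, Ptprv, Pcdhb13, Klhl30, Ankrd34c and Habp2 had log2 fold changes of 1.42 to 3.39 with adjusted p of 0.112 to 0.229 (edgeR).

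At the head of the interferon pathway, the ligand was at the limit of detection in St2-/- hosts. Ifng, interferon gamma, had 4 reads in the 3 St2-/- => St2-/- tumours and 75 in the 3 St2-/- => WT tumours. That was 0.0764, 0.158 and 0.0773 CPM in St2-/- => St2-/- tumours and 1.81, 4.12 and 0.52 CPM in St2-/- => WT tumours, which did not overlap (adjusted p = 0.177, edgeR). The counting interval of the ratio was 7.8 to 78.4 times lower in St2-/- hosts. The receptor chain Ifngr1 stood lower without overlap (log2 fold change -0.81 ± 0.30, SE) and Ifnar1, a chain of the type I receptor, higher without overlap (0.29 ± 0.13, SE). Neither was called. The 10 tested ligands, receptors and Janus kinases had a median log2 fold change of -0.177. Of the 10, 4 were lower and 1 higher without overlap, against 12.7% and 10.6% of all tested genes. The list median ran from -0.424 with a smooth muscle covariate to -0.082 with only the 2 groups fitted.

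The transcription factors below the receptors were lower in most cases. Of 15 tested STAT and IRF factors and partners, 0 were called by edgeR, 10 had an unadjusted p under 0.05 and 9 were lower without overlap, against 7.36% and 12.7% of all tested genes. Their median log2 fold change was -1.28, and DESeq2 called 8 of them and limma-voom 10. Irf1 had 131, 164 and 105 CPM in St2-/- => St2-/- tumours and 429, 736 and 322 CPM in St2-/- => WT tumours (log2 fold change -1.90 ± 0.29, SE; adjusted p = 0.0635, edgeR). Stat2, which joins IRF9 in the type I interferon complex, had 90.1, 96.6 and 74.8 CPM in St2-/- => St2-/- tumours and 142, 228 and 209 CPM in St2-/- => WT tumours. The groups did not overlap in either gene. Batf2, a basic leucine zipper factor induced by interferon gamma, had a log2 fold change of -2.67 ± 0.45 (SE). Stat3, which serves IL-6 family cytokines, overlapped between hosts with a log2 fold change of -0.17 ± 0.14 (SE).

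The guanylate-binding proteins and immunity-related GTPases, which attack vacuoles of intracellular microbes, stood lower as a block. All 11 tested guanylate-binding proteins had a negative log2 fold change, 10 without overlap, with a median of -2.87. All 9 tested immunity-related GTPases were lower without overlap, against 12.7% of all tested genes, with a median of -3.21. None of these 20 genes was called by edgeR, all 20 had an unadjusted p under 0.05, and 19 were called by DESeq2 and 19 by limma-voom. Gbp2b had 29.2, 75.4 and 18.7 CPM in St2-/- => St2-/- tumours and 388, 787 and 357 CPM in St2-/- => WT tumours (adjusted p = 0.0635, edgeR). Iigp1, an effector GTPase, had 17.0, 55.0 and 12.8 CPM in St2-/- => St2-/- tumours and 319, 988 and 211 CPM in St2-/- => WT tumours (log2 fold change -4.16 ± 0.80, SE). Irgm1, a regulator of the effectors, had 82.0, 147 and 66.0 CPM in St2-/- => St2-/- tumours and 328, 583 and 298 CPM in St2-/- => WT tumours (log2 fold change -2.03 ± 0.42, SE). Replicate 2 was the highest library of its group in all 3 genes, in both hosts. These families hold close copies whose reads can be shared, so levels of single members are less certain than their sum, which was 192, 326 and 137 CPM for guanylate-binding proteins in St2-/- => St2-/- tumours and 1120, 2480 and 1030 CPM in St2-/- => WT tumours.

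Promoter windows of 4 of these genes that hold a match, chosen after the matches were seen, are shown because the genes stood lower together and because factors of the STAT and IRF families are known to bind GAS elements (TTCNNNGAA) and ISRE elements (GAAA, any 2 bases and GAAA, read on the other strand as TTTC, any 2 bases and TTTC). Each window runs from 250 bases before to 50 bases after a RefSeq start on GRCm38.p6, plus strand, 5′ to 3′, and capitals mark a match to either motif. The windows are chr11:53769764-53770063 for Irf1, chr10:128270248-128270547 for Stat2, chr3:142620413-142620712 for Gbp2 and chr11:58214727-58215026 for Irgm2.
Irf1: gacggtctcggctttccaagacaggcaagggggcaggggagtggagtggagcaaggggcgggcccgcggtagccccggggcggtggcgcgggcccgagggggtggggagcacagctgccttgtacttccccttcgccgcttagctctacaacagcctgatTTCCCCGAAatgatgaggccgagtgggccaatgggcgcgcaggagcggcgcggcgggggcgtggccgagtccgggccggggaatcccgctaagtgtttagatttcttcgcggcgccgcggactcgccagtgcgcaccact
Stat2: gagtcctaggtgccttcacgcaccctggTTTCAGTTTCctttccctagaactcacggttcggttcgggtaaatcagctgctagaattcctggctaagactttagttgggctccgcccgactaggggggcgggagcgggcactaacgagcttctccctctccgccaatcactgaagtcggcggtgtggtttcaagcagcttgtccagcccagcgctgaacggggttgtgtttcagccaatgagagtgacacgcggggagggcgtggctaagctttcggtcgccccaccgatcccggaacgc
Gbp2: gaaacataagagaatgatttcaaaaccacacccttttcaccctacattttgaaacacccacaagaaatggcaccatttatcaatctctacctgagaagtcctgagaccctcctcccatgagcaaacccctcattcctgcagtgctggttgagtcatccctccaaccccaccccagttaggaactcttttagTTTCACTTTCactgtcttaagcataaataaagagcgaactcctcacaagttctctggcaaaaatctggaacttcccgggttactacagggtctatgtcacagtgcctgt
Irgm2: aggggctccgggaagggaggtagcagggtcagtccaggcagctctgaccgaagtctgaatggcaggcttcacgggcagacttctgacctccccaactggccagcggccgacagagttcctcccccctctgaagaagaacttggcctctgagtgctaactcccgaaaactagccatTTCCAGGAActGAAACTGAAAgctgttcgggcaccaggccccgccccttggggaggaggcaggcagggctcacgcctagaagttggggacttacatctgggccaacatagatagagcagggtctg
Irf1 holds 1 GAS match, 90 to 82 bases before the start, and its other RefSeq window holds neither motif. Stat2 and Gbp2 hold 1 ISRE match each, and Irgm2 holds a GAS and an ISRE match side by side. Both strands were searched and the motifs may overlap. An ISRE match was found in 5 of the 5 guanylate-binding protein genes with a window, in 6 of 7 immunity-related GTPases and in 14 of 25 type I interferon-stimulated genes, against 3.99% of all 27025 genes with a window and 3.8% of the 11673 tested ones. The ISRE counts were 4 of 16 in MHC class I genes and 1 of 9 in chemokines and checkpoint ligands. A GAS match was found in 5 of 7 immunity-related GTPases, 2 of 5 guanylate-binding proteins, 7 of 25 type I genes, 2 of 16 MHC class I genes and 0 of 9 chemokines and checkpoint ligands, against 9.55% of all genes with a window and 8.4% of the tested ones. The windows of Cd274, Ifi47, Cxcl9 and Psmb10, which also stood lower without overlap, hold neither motif. Of the 9 called genes, 6 had a window; Wipi1, the gene that rose, held 1 GAS match and the other 5 held neither motif. These matches describe letters in a window and show no binding.

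Antigen presentation by MHC class I followed the same direction. All 21 tested class I, peptide transport and immunoproteasome genes had a negative log2 fold change, with a median of -1.29. Without overlap, 20 of them were lower, against 12.7% of all tested genes. Of the 21, edgeR called 0, while 20 had an unadjusted p under 0.05, DESeq2 called 14 and limma-voom 20. B2m, the light chain of every class I molecule, had 650, 864 and 384 CPM in St2-/- => St2-/- tumours and 1573, 2413 and 1349 CPM in St2-/- => WT tumours (log2 fold change -1.49 ± 0.36, SE; adjusted p = 0.233, edgeR). Psmb8, an immunoproteasome subunit, had 87.4, 138 and 46.0 CPM in St2-/- => St2-/- tumours and 287, 446 and 243 CPM in St2-/- => WT tumours. No St2-/- host reached the lowest WT host in either gene. The summed class I list was 2560, 3580 and 1780 CPM in St2-/- => St2-/- tumours and 5750, 8680 and 5210 CPM in St2-/- => WT tumours.

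MHC class II genes were less clearly separated. Their median log2 fold change was -0.993. Of 14 tested, 8 were lower at an unadjusted p under 0.05 and 1 was lower without overlap, against 7.36% and 12.7% of all tested genes. EdgeR and DESeq2 called 0 of the 14 and limma-voom 8. Cd74, the class II invariant chain, had 930, 565 and 456 CPM in St2-/- => St2-/- tumours and 1736, 2731 and 776 CPM in St2-/- => WT tumours, and overlapped because of St2-/- => WT replicate 3. Without St2-/- => WT replicates 1 and 2, chosen after the values were seen because they were richest in muscle transcripts, the class II median was -0.00209, against -2.18 for guanylate-binding proteins and -2.34 for immunity-related GTPases.

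Of 34 type I interferon-stimulated genes, 33 had a negative log2 fold change, with a median of -1.17. At an unadjusted p under 0.05, 24 were lower, and 22 were lower without overlap, against 7.36% and 12.7% of all tested genes. Of the 34, edgeR called 0, DESeq2 13 and limma-voom 20. Zbp1, a sensor of left-handed nucleic acid that triggers necroptosis, had 52.4, 73.8 and 35 CPM in St2-/- => St2-/- tumours and 155, 257 and 220 CPM in St2-/- => WT tumours. Trim30a, Herc6 and Parp14, which are induced by interferon, had log2 fold changes of -1.45 ± 0.26, -1.44 ± 0.30 and -1.36 ± 0.31 (SE). In Schlafen genes, which restrict growth and viral replication, Slfn2, Slfn4 and Slfn5 were lower without overlap. These were 3 of 7 tested, against 12.7% of all tested genes. Slfn4 had 134, 212 and 150 CPM in St2-/- => St2-/- tumours and 571, 651 and 692 CPM in St2-/- => WT tumours (log2 fold change -1.95 ± 0.39, SE; adjusted p = 0.156, edgeR).

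Chemokines that attract T cells and checkpoint ligands numbered 12, with 6 lower without overlap, against 12.7% of all tested genes. Of the 12, 4 had a positive log2 fold change, and the list median was -0.785. The median was -1.34 without St2-/- => St2-/- replicate 1 and -0.33 with a smooth muscle covariate. Cxcl9 had 6.57, 40.0 and 2.47 CPM in St2-/- => St2-/- tumours and 52.2, 189 and 44.2 CPM in St2-/- => WT tumours, while Cxcl10 and Cxcl11, ligands of the same receptor CXCR3, had log2 fold changes of -2.86 ± 0.77 and -3.00 ± 0.81 (SE). Of the cells that these chemokines attract, Cd8a, a co-receptor of cytotoxic T cells, had 1.45, 6.09 and 0.309 CPM in St2-/- => St2-/- tumours and 12.2, 11.7 and 8.59 CPM in St2-/- => WT tumours. Cd8b1 also did not overlap, and the other 9 of 11 tested T cell genes did. Of all tested genes, 12.7% were lower without overlap. The T cell list had a median of -0.265, summed to 93.3, 53 and 49.9 CPM in St2-/- => St2-/- tumours and 91.2, 114 and 48 CPM in St2-/- => WT tumours, and its median was 0.689 with a smooth muscle covariate and 0.797 without both muscle-rich libraries. Ifng and Cd8a were low in the same tumours as the interferon lists, and their part in those lists was not tested.

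Cell death genes overlapped in part with the interferon lists. Of 18 tested inflammasome, pyroptosis and necroptosis genes, 14 were lower without overlap, against 12.7% of all tested genes. The list median was -0.961. Under WT marrow, 7 of the 18 were lower and 3 higher without overlap, against 9.82% and 7.84% of all tested genes. EdgeR called 0 of the 18 (12 at an unadjusted p under 0.05), DESeq2 4 and limma-voom 12. Gsdmd, the pore protein of pyroptosis, had 189, 234 and 206 CPM in St2-/- => St2-/- tumours and 357, 416 and 356 CPM in St2-/- => WT tumours. Ripk3 and Mlkl, the kinase and pore former of necroptosis, had log2 fold changes of -0.75 ± 0.18 and -1.08 ± 0.27 (SE). Of 14 tested complement genes, 5 were lower and 1 higher without overlap, against 12.7% and 10.6% of all tested genes. The complement median of -0.553 turned to 0.379 with a smooth muscle covariate. Complement C2 and Cfb, both parts of C3 convertases, were among the lower ones, with log2 fold changes of -1.70 ± 0.55 and -0.78 ± 0.41 (SE). Il18bp, the secreted decoy of IL-18, had a log2 fold change of -1.62 ± 0.30 (SE; adjusted p = 0.115, edgeR).

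**Figure D2:**
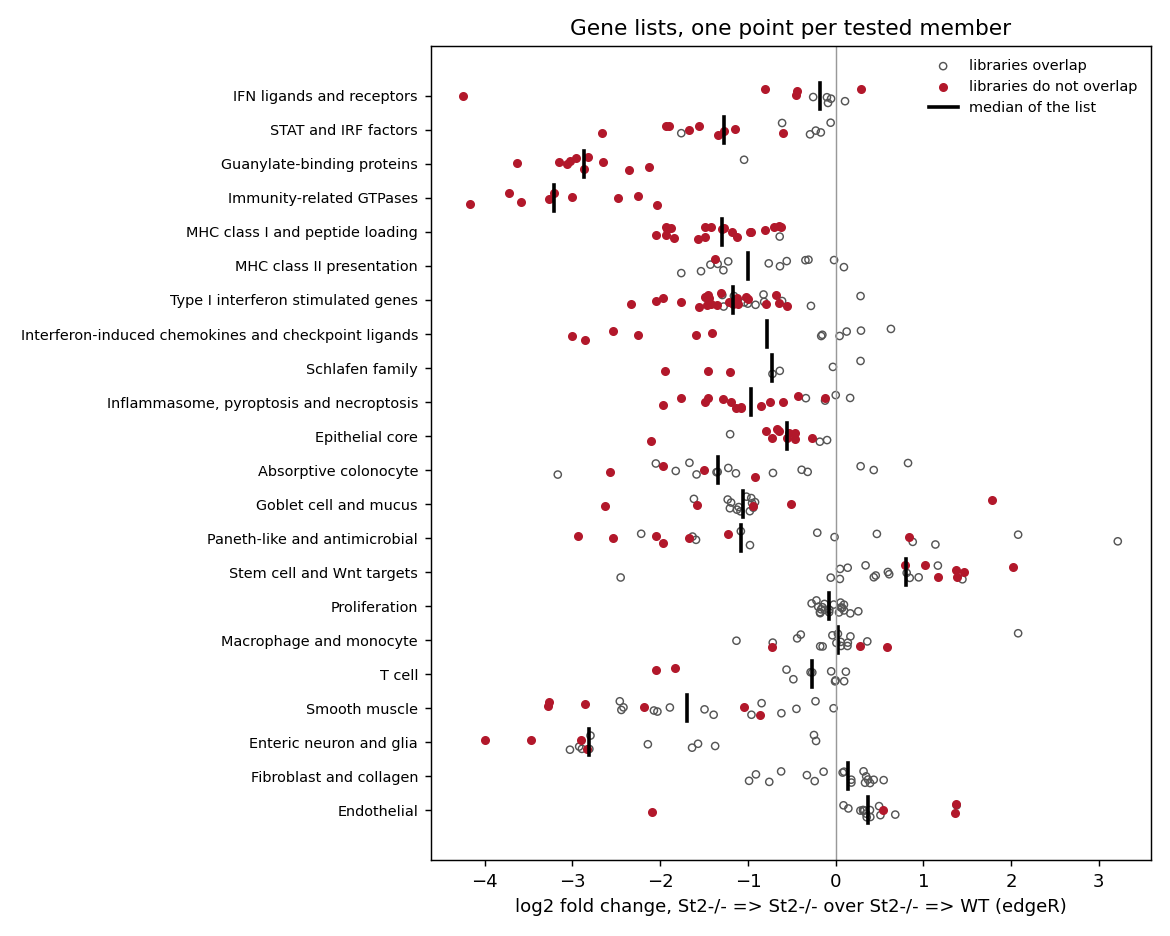
Log2 fold change of St2-/- => St2-/- over St2-/- => WT (edgeR) for each tested member of 22 gene lists. Filled points are genes whose 3 and 3 libraries do not overlap in CPM, open points overlap, and black bars are list medians. Medians are lowest for immunity-related GTPases (-3.21) and guanylate-binding proteins (-2.87), and the stem cell list is the one with a median at 0.8.

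Of 13 core epithelial genes, 10 were lower without overlap, against 12.7% of all tested genes, with a median of -0.553, or -0.87 with a smooth muscle covariate. EdgeR called 0 of them (6 at an unadjusted p under 0.05), DESeq2 1 and limma-voom 7. Krt20, a keratin of differentiated surface cells, had 248, 297 and 162 CPM in St2-/- => St2-/- tumours and 816, 1511 and 706 CPM in St2-/- => WT tumours (log2 fold change -2.10 ± 0.67, SE; adjusted p = 0.341, edgeR). Absorptive colonocyte genes had a median of -1.34, with 4 of 19 lower without overlap, against 12.7% of all tested genes, and 0 called by edgeR (6 at an unadjusted p under 0.05), 0 by DESeq2 and 5 by limma-voom. Among them Lypd8, an antibacterial surface protein, had 3030, 3679 and 2339 CPM in St2-/- => St2-/- tumours and 7608, 12510 and 5433 CPM in St2-/- => WT tumours. The absorptive median was -1.39 with a smooth muscle covariate and -0.262 without both muscle-rich libraries, which leaves St2-/- => WT replicate 3 as the one tumour of its group.

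Goblet cell genes had a median of -1.05, with 4 of 18 lower and 1 higher without overlap, against 12.7% and 10.6% of all tested genes. Retnlb, an antibacterial resistin-like protein of goblet cells, had 10.3, 6.57 and 3.32 CPM in St2-/- => St2-/- tumours and 41.3, 48.5 and 35.6 CPM in St2-/- => WT tumours (adjusted p = 0.202, edgeR). Muc4, a membrane mucin, had a log2 fold change of -1.58 ± 0.46 (SE). Ang4, an antimicrobial ribonuclease, was the higher one, with 10.3, 4.59 and 13.8 CPM in St2-/- => St2-/- tumours and 1.81, 2.92 and 3.56 CPM in St2-/- => WT tumours. The goblet median was -1.27 with a smooth muscle covariate and -0.28 without both muscle-rich libraries.

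Among 19 antimicrobial and Paneth-like genes, 6 were lower and 1 higher without overlap, against 12.7% and 10.6% of all tested genes. The list median was -1.08, or -0.371 without both muscle-rich libraries. Of the 19, 13 had a negative log2 fold change and 6 a positive one, the largest 3.22. At an unadjusted p under 0.05 (edgeR), 2 were higher and 5 lower, against 4.65% and 7.36% of all tested genes. Nos2, the inducible nitric oxide synthase, had 64.3, 49.3 and 72.9 CPM in St2-/- => St2-/- tumours and 298, 572 and 213 CPM in St2-/- => WT tumours. Slpi, an antiprotease, and Duoxa2, the maturation factor of the oxidase DUOX2, had log2 fold changes of -2.04 ± 0.72 and -1.67 ± 0.63 (SE). Pla2g2a, a secreted bactericidal phospholipase, was the 1 gene higher without overlap (log2 fold change 0.83 ± 0.47, SE). It had 3596, 4578 and 6230 CPM in St2-/- => St2-/- tumours and 2681, 2614 and 2799 CPM in St2-/- => WT tumours. Of glycolysis genes, Hk2 had 201, 182 and 201 CPM in St2-/- => St2-/- tumours and 524, 607 and 427 CPM in St2-/- => WT tumours. In that list 5 of 15 were lower without overlap, against 12.7% of all tested genes. Its median was -0.403, or -0.633 with a smooth muscle covariate and -0.265 without both muscle-rich libraries.

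Stem cell genes and Wnt targets lay in the other direction. Of 22 tested, 7 were higher and 0 lower without overlap, against 10.6% and 12.7% of all tested genes. In the higher direction 8 had an unadjusted p under 0.05, against 4.65% of all genes. The list median was 0.8. Of the 22, 0 were called by edgeR or DESeq2 and 11 by limma-voom. Axin2, a negative feedback target of Wnt signalling, had 504, 512 and 608 CPM in St2-/- => St2-/- tumours and 165, 206 and 433 CPM in St2-/- => WT tumours (log2 fold change 1.02 ± 0.37, SE; adjusted p = 0.370, edgeR). Rnf43, a ligase that removes Wnt receptors, and Ascl2, a stem cell factor, overlapped because St2-/- => WT replicate 3 was high, with log2 fold changes of 0.81 ± 0.30 and 0.95 ± 0.36 (SE). Without both muscle-rich libraries, which leaves replicate 3 as the one St2-/- => WT tumour, the median was 0.225. Proliferation genes did not separate the hosts, with a median of -0.0725. Of 20 tested, 0 were apart, while 10.6% of all tested genes were higher and 12.7% lower without overlap.

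Some genes of invasion and inflammation were apart between hosts. Mmp12, the macrophage metalloelastase, had 41.9, 21.6 and 18 CPM in St2-/- => St2-/- tumours and 10.9, 11.1 and 11.8 CPM in St2-/- => WT tumours, and Mmp9 also did not overlap (log2 fold changes 1.27 ± 0.39 and 1.58 ± 0.77, SE). Il23a, the p19 subunit of IL-23, had 7.79, 5.14 and 6.88 CPM in St2-/- => St2-/- tumours and 1.12, 0.943 and 0.954 CPM in St2-/- => WT tumours (log2 fold change 2.70 ± 0.75, SE; adjusted p = 0.292, edgeR). Areg, an EGF receptor ligand that IL-33 is known to induce in lymphocytes, had 18.4, 33.2 and 13.6 CPM in St2-/- => St2-/- tumours and 53.6, 65.4 and 48.5 CPM in St2-/- => WT tumours. All 4 genes were apart between hosts, and none was called by edgeR. Of 11 tested metalloproteinase list genes, 10 had a positive log2 fold change, with a median of 0.547. Without overlap, 3 of the 11 were higher and 0 lower, against 10.6% and 12.7% of all tested genes. Of 15 tested tumour-promoting cytokine genes, 1 was higher and 1 lower without overlap, against the same shares. Macrophage genes had a median of 0.0266, or 0.515 with a smooth muscle covariate and 0.338 without both muscle-rich libraries. Mast cell genes had one of 0.693, with 3 of 13 higher and 1 lower without overlap, against 10.6% and 12.7% of all tested genes, and 0.453 without St2-/- => WT replicate 2 but 1.43 without St2-/- => WT replicate 1.

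Muscle and nerve transcripts separated St2-/- => WT replicates 1 and 2 from the other 4 tumours. Summed CPM of 20 smooth muscle genes was 2090, 1500 and 1820 in St2-/- => St2-/- tumours and 5580, 3270 and 1880 in St2-/- => WT tumours. The enteric neuron and glia sum was 43.5, 30.8 and 30.6 CPM in St2-/- => St2-/- tumours and 253, 77.8 and 50 CPM in St2-/- => WT tumours. Actg2, smooth muscle gamma actin, had 41.0, 15.2 and 34.8 CPM in St2-/- => St2-/- tumours and 411, 188 and 59.2 CPM in St2-/- => WT tumours. The medians were -1.69 for smooth muscle, with 6 of 20 lower without overlap, and -2.81 for neurons and glia, with 4 of 15, against 12.7% of all tested genes. Without both libraries they were -0.185 and -0.48, while edgeR then called 1 gene, Wipi1, with a single St2-/- => WT tumour assumed to vary like the other groups. With a smooth muscle score as covariate, edgeR called 19 genes, 6 of them among the 9, and the medians were -2.57 for guanylate-binding proteins and -3.16 for immunity-related GTPases.

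**Figure D3:**
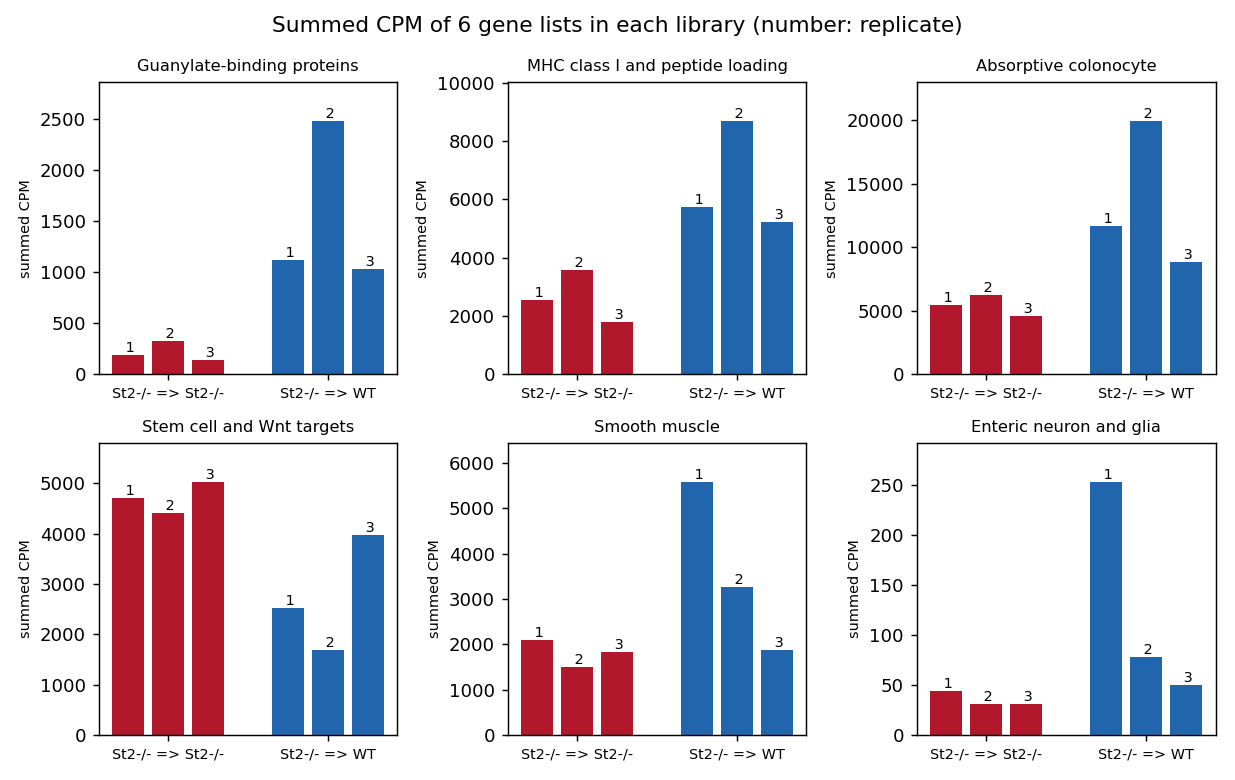
Summed CPM of 6 gene lists in each library, with the replicate number above each bar. Guanylate-binding proteins, MHC class I and absorptive colonocyte sums are higher in each of the 3 St2-/- => WT bars than in any St2-/- => St2-/- bar, stem cell sums lower, and smooth muscle and neuron sums are highest in St2-/- => WT replicates 1 and 2.

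The same contrast of hosts under WT marrow, WT => St2-/- against WT => WT, used 6 other libraries and allowed a test of whether the host effect differed with the marrow. No gene was called for that difference by edgeR at an adjusted p under 0.05 (0 of 15060, lowest adjusted p 0.119), with 1144 genes (7.6%) at an unadjusted p under 0.05; DESeq2 called 93 and limma-voom 4. Nothing above is therefore shown by edgeR to be particular to St2-/- marrow. Under WT marrow Wipi1 had 27.0, 30.2 and 21.5 CPM in WT => St2-/- tumours and 0.172, 0.0966 and 0.0796 CPM in WT => WT tumours. Ido1 had 2.45, 0.696 and 0.879 CPM in WT => St2-/- tumours and 92.6, 88.2 and 170 CPM in WT => WT tumours. Both genes showed the host difference with either marrow. The library numbers split by host genotype under WT marrow too, so what they stand for cannot be told apart from host ST2 genotype here either. Medians under WT marrow were -3.03 for guanylate-binding proteins, -3.76 for immunity-related GTPases and -1.42 for MHC class I.

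Some gene lists had medians of different size or sign under the 2 marrows. Smooth muscle genes had a median of -1.69 under St2-/- marrow and 2.02 under WT marrow, and 16 of 20 had an unadjusted p under 0.05 for the difference, against 4.52% of all genes in that direction. Under WT marrow the muscle-rich libraries were hosts of the other genotype, with sums of 1570, 6710 and 3500 CPM in WT => St2-/- tumours and 1120, 1940 and 1820 CPM in WT => WT tumours. Macrophage genes had a median of 0.0266 under St2-/- marrow and -1.17 under WT marrow, with 9 of 19 at an unadjusted p under 0.05 in the direction of a higher host effect under St2-/- marrow, against 3.07% of all genes, and 1 in the other direction. Fcgr4, an activating IgG receptor of macrophages, had 6.88, 11.2 and 8.35 CPM in St2-/- => St2-/- tumours and 13.9, 12.5 and 9.37 CPM in St2-/- => WT tumours, beside 3.64, 3.83 and 5.01 CPM in WT => St2-/- tumours and 16.1, 33.7 and 22.7 CPM in WT => WT tumours. Epithelial core genes were lower without overlap in 10 of 13 cases under St2-/- marrow and in 0 under WT marrow (against 9.82% of all genes), but 0 of them had an unadjusted p under 0.05 for the difference.

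**Figure D4:**
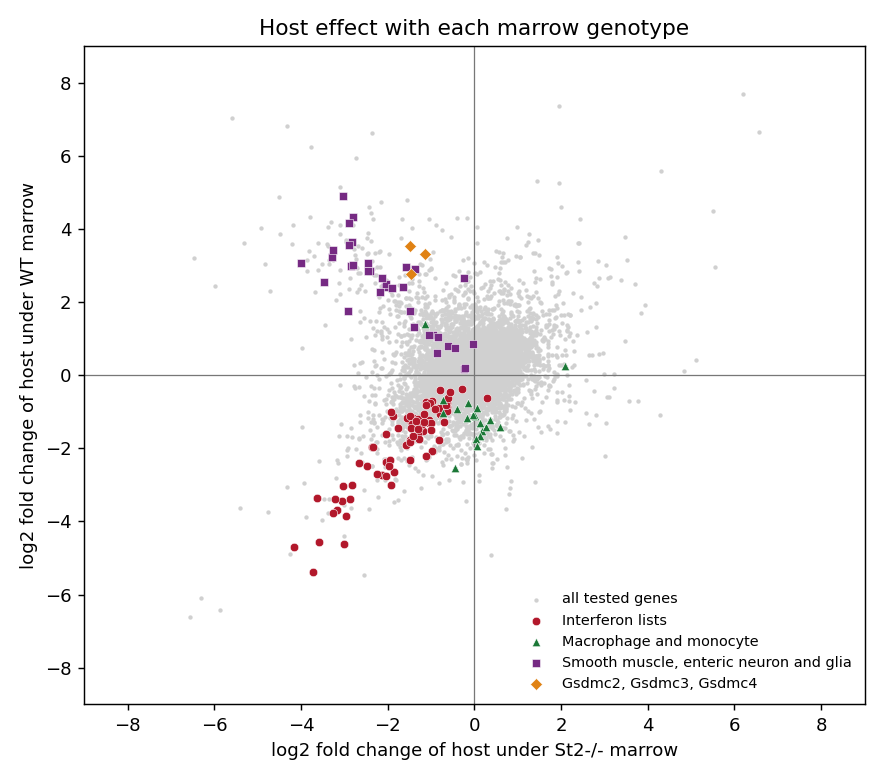
Log2 fold change of St2-/- hosts over WT hosts for each tested gene (edgeR), under St2-/- marrow on the x axis and under WT marrow on the y axis. Interferon list members lie in the lower left, smooth muscle, neuron and glia members in the upper left, and macrophage genes spread along the y axis around a median of 0.0266 on the x axis.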

How the data were processed

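RNA of snap-frozen colon tumours was made into TruSeq libraries and sequenced as single-end reads, per the labels' protocols. The submitters' processing notes name TopHat, Bowtie2 and the build GRCm38 (mm10). How reads were counted, on which annotation and with which strand setting is not given in the sources used here, so genes that overlap on opposite strands are less certain. The authors deposited raw read counts per gene for 24062 genes, with 5 summary entries that name no gene, which held 52.3% to 59.6% of the total in St2-/- => St2-/- libraries and 49.8% to 50.2% in St2-/- => WT libraries and were left out.

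The analysis used edgeR 4.0.16 in R 4.3.3. The filter filterByExpr (minimum count 10) kept 15060 genes, and TMM scaled the libraries. A robust quasi-likelihood model had 1 coefficient for each of the 4 groups over all 12 libraries, so that all groups set the spread. Tests were two-sided, and calls were made where the p adjusted by Benjamini-Hochberg was under 0.05. CPM are counts scaled by TMM. P-values measure the spread between tumours labelled as biological replicates, and counting intervals (95%) cover counting error only. Alternatives used DESeq2 1.42.0, limma-voom (limma 3.58.1), other filters, covariates, a replicate block and each library left out.

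The members and the 42 gene lists (646 different genes, 584 tested) were chosen with earlier results of these data known, and lists are described by counts and medians with no test. Named genes were all called genes, up to 10 higher and 10 lower uncalled genes of smallest p whose log2 fold change was 1 or more in size and whose libraries did not overlap, leaving out predicted and sex-linked genes, Il1rl1, Il33 and its neighbours, and members of lists with the smallest p or highest level. Genes named beside them were chosen after their values were seen. The single-gene results of 1 called gene and of 1 other gene are not reported here. Coordinates came from GENCODE M21 and promoter windows from RefSeq on GRCm38.p6; RefSeq symbols matched 99.4% of genes. The edgeR script was also run on simulated counts drawn independently for each gene. Those lack the differences in composition between these tumours, so the run does not bear on how reliable the calls are. Figures were drawn with Python 3.11.15.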

Additional observations from a re-analysis of the deposited data

Results flagged for a closer look

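Among the genes chosen for naming in the text, 5 had hosts apart under both marrows but in opposite directions. For these 5, the 3 and 3 libraries did not overlap under either marrow. Other named genes, such as Wipi1 and Ido1, were also apart under both marrows, but in the same direction. The other tested genes were not searched for this pattern. The difference, the host effect under St2-/- marrow minus that under WT marrow on the log2 scale, was tested with edgeR's quasi-likelihood model and adjusted over 15060 genes. It was -4.46 for Gsdmc2, with an adjusted p of 0.119, the lowest of all genes. It was -5.01 for Gsdmc3, -4.23 for Gsdmc4, 3.64 for Habp2 and -1.45 for Hspb6, with an adjusted p of 0.539 for each of these 4. No difference therefore passed the test.

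Gsdmc2, Gsdmc3 and Gsdmc4 are pore-forming gasdermins of the C family, which is known in the mouse gut for induction by type 2 cytokines, and they were singled out after their values were seen. Gsdmc2 had 94.4, 112 and 65.4 CPM in St2-/- => St2-/- tumours and 226, 239 and 131 CPM in St2-/- => WT tumours. Under WT marrow it had 546, 862 and 742 CPM in WT => St2-/- tumours and 102, 33.7 and 79.3 CPM in WT => WT tumours. The highest levels of the series were thus in St2-/- hosts with WT marrow. The family members are close copies whose reads can be shared, so the split between them is uncertain. Habp2, a plasma serine protease, had 8.10, 4.35 and 16.4 CPM in St2-/- => St2-/- tumours and 0.517, 0.257 and 2.69 CPM in St2-/- => WT tumours, beside 5.67, 4.61 and 3.87 CPM in WT => St2-/- tumours and 7.04, 7.73 and 6.61 CPM in WT => WT tumours. Hspb6, a small heat shock protein of muscle, had 5.20, 4.91 and 4.79 CPM in St2-/- => St2-/- tumours and 9.56, 10.8 and 6.68 CPM in St2-/- => WT tumours, beside 7.36, 11.7 and 7.91 CPM in WT => St2-/- tumours and 4.64, 6.28 and 6.92 CPM in WT => WT tumours. The smooth muscle list also changed sign, with medians of -1.69 under St2-/- marrow and 2.02 under WT marrow. In St2-/- => WT replicate 3 the smooth muscle sum was 1880 CPM, beside 1500 to 2090 CPM in St2-/- => St2-/- tumours. The part of muscle content in the Hspb6 values was not tested.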

How the results depend on the processing

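Against 9 called genes, the DESeq2 Wald test called 262, limma-voom 2004, edgeR with weeks after AOM as covariate 4, with a smooth muscle covariate 19 and with only the 2 groups compared 2. Leaving out each library in turn gave 1 to 17, and leaving out both muscle-rich St2-/- => WT libraries, an alternative chosen after seeing the data, gave 1. DESeq2 size factors, no filter, a CPM filter of 1 and a leukocyte covariate gave 7 to 9. The difference of host effects had 0 calls in every edgeR alternative run, 93 by DESeq2 and 4 by limma-voom. With the replicate block edgeR called 1 gene, Wipi1. The same-numbered libraries of the 2 groups had correlations of 0.24, -0.11 and 0.14 between their deviations, so the numbers are not shown to pair the tumours. Every named gene kept its direction under all alternatives, apart from Il33, which ran from -1.27 to 0.185 when libraries were left out in turn. The medians of the 5 interferon lists, guanylate-binding proteins, immunity-related GTPases, MHC class I, type I genes and STAT and IRF factors, moved by less than the spread between libraries in all alternatives. With 3 tumours a group and wide spread in St2-/- => WT tumours, differences of lowly counted genes such as Ifng were at the limit of this depth. The causes of these changes were not tested.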
